A study of Rattus norvegicus with 6 samples.

Results

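The genes described here are 9 members of renal gluconeogenesis and ammonia production: Pck1, G6pc1, Fbp1, Pcx, Glud1, Slc38a3, Slc37a4, Slc9a3 and Slc4a4. They were chosen by name among the 15645 genes that the probes of the array could be matched to. A probe was taken for a member when the RefSeq accession of its target belongs to that gene, which gave 20 probes for the 9 genes: 3 members had 3 probes, 5 had 2 and 1, Slc38a3, had a single probe. RefSeq now lists Pcx under the symbol Pc. The accessions printed on the array were NM_198780 for Pck1, NM_013098 for G6pc1, NM_012558 for Fbp1, NM_012744 for Pcx, NM_012570 for Glud1, NM_145776 for Slc38a3, NM_031589 for Slc37a4, NM_012654 for Slc9a3 and NM_053424 for Slc4a4.

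The samples were pieces of renal cortex from male Sprague-Dawley rats that were 5 weeks old when bought. The DNPT group was 3 rats dosed for 4 weeks at 200 mg/kg/day with N,N'-dinitrosopentamethylenetetramine (DNPT), a blowing agent for rubber that carries N-nitroso groups. The vehicle group was 3 rats dosed with corn oil over an equal span. Each rat's RNA was hybridised to 1 single-colour Agilent array, so each value rests on 1 animal and 1 array.

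The proximal tubule of the kidney both makes glucose and excretes acid, and the 2 tasks share carbon. Glutamine enters the cell through Slc38a3 and loses its amide nitrogen, and the glutamate that remains is deaminated by glutamate dehydrogenase, encoded by Glud1; both steps release ammonia for the urine. The carbon skeleton passes through the citric acid cycle to oxaloacetate, which Pck1 turns into phosphoenolpyruvate, while Pcx makes oxaloacetate from pyruvate. Fbp1, Slc37a4 and G6pc1 then carry out the late steps to free glucose. Slc9a3 secretes protons and ammonium into the tubule fluid and Slc4a4 returns bicarbonate to the blood. In metabolic acidosis the Pck1 and Slc38a3 transcripts are known to increase in the rat kidney.

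A signal is given on the log2 scale after subtraction of its own array's 75th percentile, a difference is DNPT minus vehicle, and a gene is represented by its brightest probe. Of the 34915 features tested with limma (named genes and unnamed probes), 0 passed a Benjamini-Hochberg adjusted p of 0.05 (0% of those tested), and 4227 had an unadjusted p under 0.05 (12.1%). None of the 9 members passed. At an unadjusted p under 0.05, 4 of 9 were higher in DNPT rats and 0 lower, where 5.95% of all features were higher and 6.16% lower. That count depended on the processing: after quantile normalization 2 members were higher (Pcx and Slc37a4) and 1 was lower (G6pc1), with array position as a block 2 were higher (Pcx and Slc37a4), and on slide 1 alone there were 0. The values of all 3 DNPT rats lay above those of all 3 vehicle rats in 4 members, Fbp1, Pcx, Slc37a4 and Slc4a4, while the groups overlapped in the other 5. Over all features, that lack of overlap occurred upward in 11.9% and downward in 8.32%, together 20.2%. The difference was positive in 7 members and negative in 2, where 51.9% of all features were positive and 48.1% negative. The median difference of the 9 members was 0.19, against 0.01 over all features. Of the 20 member probes, 16 were positive (51.5% of all 44305 probes tested) and 13 after quantile normalization. Of those 20, 6 had an unadjusted p under 0.05 (11.8% of all probes), 7 had all DNPT rats above all vehicle rats (11.4%) and 1 all below (8.43%).

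Several properties of the arrays bear on these values. Of the 61537 non-control probes, 42116 to 43402 exceeded background clearly on DNPT arrays and 44730 to 45167 on vehicle arrays. All 20 member probes did so on all 6 arrays, with none saturated. The 75th percentile was 953 to 1112 units on DNPT arrays and 1164 to 1329 on vehicle arrays, so every DNPT array was dimmer. Before scaling, the DNPT values of the brightest probe still lay above all vehicle values in Pcx. Those of Fbp1, Slc37a4 and Slc4a4 then overlapped the vehicle values. Brightness moved with the result: 7 of the 9 members, all but Slc38a3 and Slc9a3, were among the brightest 5% of features, whose median difference was 0.13, with 80.5% of them positive, against 51.9% of all features. Quantile normalization, which forces all arrays to one distribution, brought the median of those bright features to 0.01. The part of brightness in the members' differences was not tested. Slide 1 held the 3 vehicle rats and DNPT replicate 1. Slide 2, scanned on another day, held the other DNPT rats, replicates 2 and 3, and no vehicle rat. All vehicle arrays lay in row 1 of their slide and all DNPT arrays in row 2, so row and treatment cannot be told apart. Along the row, each of positions 2, 3 and 4 held 1 DNPT and 1 vehicle array.

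The tissue carried the markers of the labelled cortex. All 8 proximal tubule markers examined, among them Lrp2, Slc34a1 and Miox, were well above background on all arrays. Their summed signal, in multiples of each array's 75th percentile, was 1594 to 1853 in DNPT rats and 1433 to 1586 in vehicle rats, with 7 of 8 markers higher; 1 of them, Slc5a2, is also in the list of carriers below. In a bulk sample, fewer cells of a type and less RNA per cell cannot be told apart. Of 18 liver markers, a tissue that shares the gluconeogenic enzymes, 17 were tested and 15 were higher in DNPT rats, with sums of 196 to 237 in DNPT rats and 148 to 189 in vehicle rats. Alb was at -1.25, -4.73 and 3.76 in DNPT rats and -4.72, 0.48 and -1.84 in vehicle rats, and Cps1, the urea cycle enzyme of the liver, was not well above background on any array. Blood and leucocyte markers summed to 636 to 696 in DNPT rats and 522 to 606 in vehicle rats, with 3 of 6 higher. The 5 adipose markers tested summed to 1.72 to 2.20 in DNPT rats and 1.94 to 2.57 in vehicle rats, with 0 of 5 higher, and Lep was not well above background on any array. All 4 markers of the thick ascending limb were lower in DNPT rats, with sums of 234 to 323 in DNPT rats and 274 to 336 in vehicle rats. The part of these markers in the results below was not tested.

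Pcx, pyruvate carboxylase, had the largest difference of the 9 members. Its signal was 7.68, 8.06 and 8.02 in DNPT rats, against 7.47, 7.38 and 7.42 in vehicle rats. The DNPT rats lay above every vehicle rat, and the 2 DNPT rats of slide 2 lay above the DNPT rat of slide 1. The difference was 0.49 (SE 0.12), a fold of 1.41 (95% interval 1.14 to 1.74), with a limma p of 0.0080 and an adjusted p of 0.353. The exact permutation test, two-sided, gave 0.1, the smallest p that 3 against 3 allows. A second probe, at 6.18, 6.40 and 6.43 in DNPT rats and 5.999, 6.003 and 5.986 in vehicle rats, differed by 0.34 (SE 0.10). On slide 1, where the vehicle rats are compared with DNPT replicate 1 alone, the difference was 0.25, against 0.49 over all rats. Without that rat the difference was 0.61 with an adjusted p of 0.0457, and 640 of 34641 features passed (1.85%), of which 37 were higher in DNPT rats, as Pcx was (0.107% of those tested); the 2 DNPT rats that remain were on slide 2 and all vehicle rats on slide 1, so slide and treatment cannot be told apart there.

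**Figure D1:**
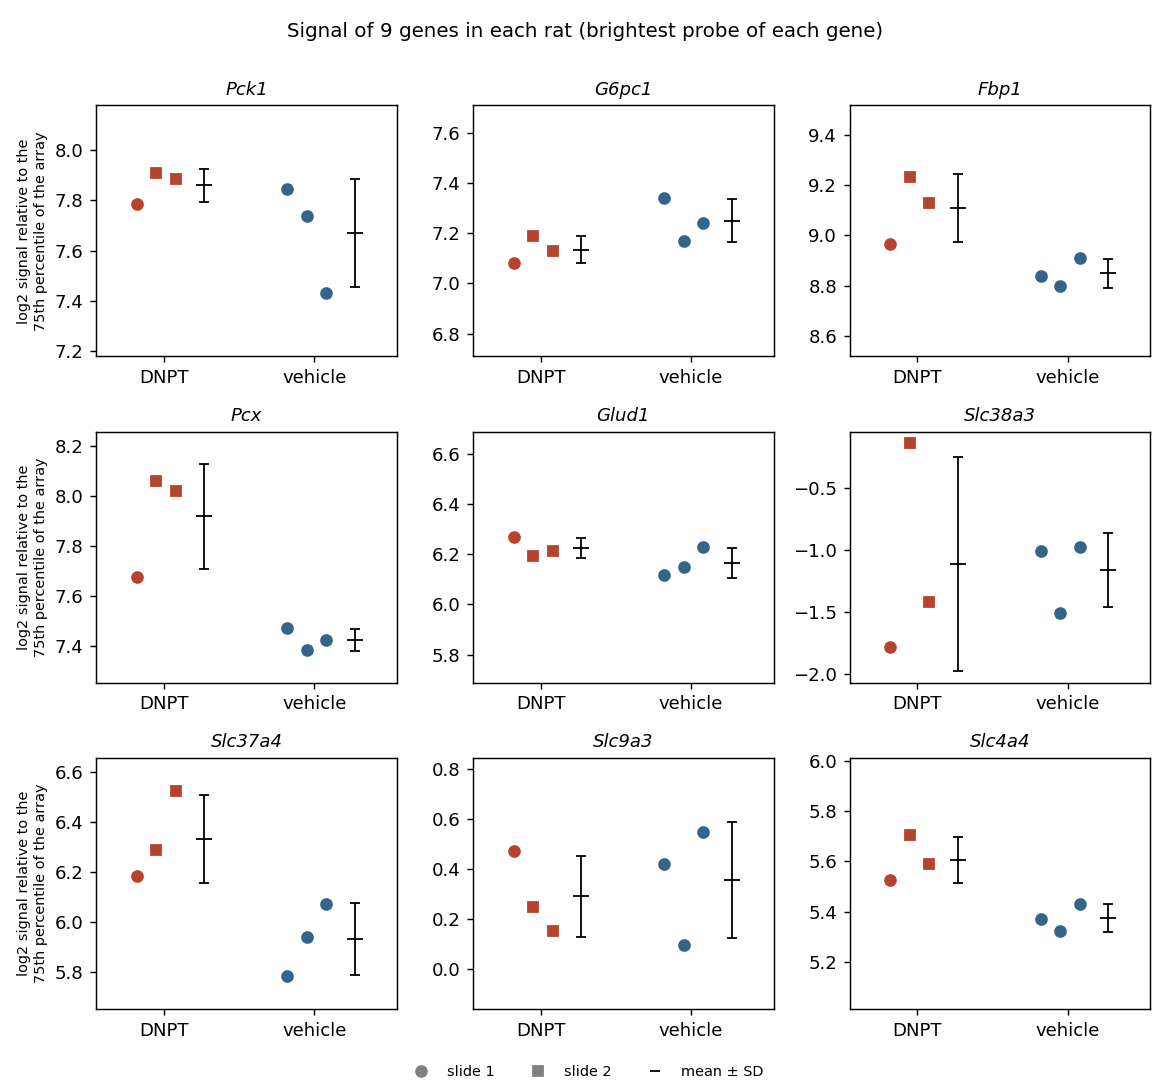
Signal of each gene's brightest probe in every rat, as log2 relative to the array's 75th percentile, with 3 DNPT rats (left, red) and 3 vehicle rats (right, blue) per panel; circles are slide 1, squares slide 2, and bars give the mean ± SD. The DNPT points of Fbp1, Pcx, Slc37a4 and Slc4a4 lie above all vehicle points, and those of the other 5 genes overlap them.

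Pck1, cytosolic phosphoenolpyruvate carboxykinase, is the regulated entry step from oxaloacetate and responds to cAMP, glucocorticoids and acidosis. Its signal was 7.78, 7.91 and 7.89 in DNPT rats, against 7.84, 7.74 and 7.43 in vehicle rats. Vehicle replicate 3 was the low value and the groups overlapped. The difference of 0.19 (SE 0.13, limma adjusted p = 0.543) was within the spread of the vehicle rats, and its interval spans a fold of 0.915 to 1.42. Without vehicle replicate 3 it was 0.07, and on slide 1 alone 0.11. Within array positions 2, 3 and 4 the DNPT array exceeded the vehicle array by 0.07, 0.15 and 0.36, and only the pair at position 4 shared a slide. The second probe differed by 0.06 (SE 0.10), and by -0.08 after quantile normalization. Pck2, the mitochondrial isoenzyme, was named after its values were seen. It was at 2.31, 2.51 and 2.32 in DNPT rats and 2.08, 2.09 and 2.17 in vehicle rats, without overlap (0.27, SE 0.09, limma adjusted p = 0.393). Over its 3 probes the Pck2 difference ran from 0.10 to 0.27.

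G6pc1, the catalytic subunit of glucose-6-phosphatase, releases free glucose in the endoplasmic reticulum. Its brighter probe gave 7.08, 7.19 and 7.13 in DNPT rats, against 7.34, 7.17 and 7.24 in vehicle rats, with an overlap between DNPT replicate 2 and vehicle replicate 2. The difference was -0.12 (SE 0.09, limma adjusted p = 0.571), with an interval from a fold of 0.797 to 1.07. The dimmer probe gave 3.93, 3.94 and 3.99 in DNPT rats, against 4.30, 4.15 and 4.27 in vehicle rats, and here every DNPT rat lay below every vehicle rat. That probe differed by -0.28 (SE 0.08), with an unadjusted limma p of 0.0126 and an adjusted p of 0.370 over the 44305 probes tested, of which 8.43% had all DNPT rats below all vehicle rats. G6pc1 was the bright member with a negative difference under every one of the 18 alternatives, from -0.28 to -0.07, and quantile normalization made it more negative, at -0.27.

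The sequences upstream of Pck1 and G6pc1, and of Slc37a4, the transporter that works with G6pc1, are shown because the first 2 are the textbook hormone-responsive promoters of gluconeogenesis. Each is the 250 bases before the annotated start of the gene in the RefSeq annotation of build GRCr8, and 7 of the 9 members had an entry. In that build the 3 stretches are chr3:182348322-182348571 for Pck1, chr10:86807409-86807658 for G6pc1 and chr8:53619775-53620024 for Slc37a4, all on the plus strand. Capitals mark matches on either strand to the letters TATAAA, the core promoter box, to CGTCA, part of the cAMP response element, to GTTAAT, part of the HNF1 site, to TGTTTTG, the core of an insulin response sequence, or to the E-box CACGTG.
Pck1: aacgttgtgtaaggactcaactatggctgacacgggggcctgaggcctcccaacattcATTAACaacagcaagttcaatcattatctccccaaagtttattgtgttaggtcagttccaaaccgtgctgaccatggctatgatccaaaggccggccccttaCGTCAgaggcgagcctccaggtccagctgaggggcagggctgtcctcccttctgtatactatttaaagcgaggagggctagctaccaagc
G6pc1: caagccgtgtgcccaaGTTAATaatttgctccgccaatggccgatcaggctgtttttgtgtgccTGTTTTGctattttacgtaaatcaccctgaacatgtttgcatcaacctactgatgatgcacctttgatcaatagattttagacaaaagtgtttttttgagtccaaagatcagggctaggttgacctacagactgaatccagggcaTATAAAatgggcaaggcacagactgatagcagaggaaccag
Slc37a4: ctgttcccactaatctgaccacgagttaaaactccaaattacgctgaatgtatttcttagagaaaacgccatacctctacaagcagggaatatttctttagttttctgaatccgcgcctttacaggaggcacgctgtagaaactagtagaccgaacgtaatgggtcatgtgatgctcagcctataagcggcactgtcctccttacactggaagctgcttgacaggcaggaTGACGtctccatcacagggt

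In Pck1 CGTCA lay 90 to 86 bases before the start and the HNF1 letters, on the other strand, 192 to 187 bases before it. G6pc1 held TATAAA 41 to 36 bases before the start, the insulin response core 186 to 180 bases before it and the HNF1 letters 234 to 229 bases before it. Slc37a4 held CGTCA, on the other strand, 20 to 16 bases before its start. None of these matches overlapped another. Among 33469 promoters of this length, 18.2% held CGTCA, 12.9% TATAAA, 6.45% GTTAAT, 5.46% TGTTTTG and 5.59% CACGTG. A match of letters is no measurement of binding. The intervals of both Pck1 probes, the brighter G6pc1 probe and the second Slc37a4 probe included 0. Those of the dimmer G6pc1 probe and the brighter Slc37a4 probe did not, and no probe had an adjusted p under 0.05.

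Slc37a4 moves glucose-6-phosphate into the endoplasmic reticulum, where G6pc1 acts on it. Its brighter probe gave 6.18, 6.29 and 6.52 in DNPT rats, against 5.78, 5.94 and 6.07 in vehicle rats, with no overlap. The difference was 0.40 (SE 0.13), a fold of 1.32 (95% interval 1.06 to 1.65), with a limma adjusted p of 0.393. On slide 1 alone it was 0.25, against 0.40 over all rats. The second probe gave 5.77, 6.50 and 6.70 in DNPT rats, against 6.12, 6.14 and 5.56 in vehicle rats, and the groups overlapped. Both low values of that probe came from arrays at position 4 of the row, DNPT replicate 1 and vehicle replicate 3. Compared within a position, the DNPT array was higher by 0.38 at position 2, 0.56 at position 3 and 0.21 at position 4. Only the pair at position 4 shared a slide, because the DNPT arrays at positions 2 and 3 were on slide 2. On slide 1 alone, without regard to position, this probe differed by -0.17. The unadjusted limma p was 0.235 without and 0.0242 with array position as a block, which was added after the data were seen. The adjusted limma p with the block was 0.397.

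The differences of Slc37a4 and G6pc1 thus had opposite signs. Their ratio within an array does not depend on a single scaling factor per array. It does depend on quantile normalization, which moved the 2 genes unequally, Slc37a4 from 0.40 to 0.29 and G6pc1 from -0.12 to -0.27. Relative to the vehicle mean, the log2 ratio of the brighter Slc37a4 probe to the brighter G6pc1 probe was 0.42, 0.42 and 0.71 in DNPT rats, against -0.24, 0.09 and 0.15 in vehicle rats. All DNPT rats exceeded all vehicle rats, with a mean difference of 0.52 and an exact two-sided permutation p of 0.1. With the dimmer G6pc1 probe the mean difference was 0.68, also without overlap, while the 2 ratios that use the position-sensitive Slc37a4 probe were 0.50 and 0.67 and overlapped. This ratio was chosen after the values were seen, so it describes these rats and is no test of an unequal change of the 2 genes.

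Fbp1, fructose-1,6-bisphosphatase, catalyses the step opposed to phosphofructokinase. Its brighter probe gave 8.96, 9.23 and 9.13 in DNPT rats, against 8.84, 8.80 and 8.91 in vehicle rats, without overlap. The difference was 0.26 (SE 0.10, limma adjusted p = 0.406), a fold of 1.197. It was 0.08 after quantile normalization, 0.04 after background correction by normexp followed by quantile normalization, and 0.12 on slide 1 alone. Before scaling, this probe reached 592277 units in the brightest vehicle rat, where the saturation value of that slide was 779102, and it was not marked as saturated on any array. The other Fbp1 probe gave 6.57, 6.57 and 6.62 in DNPT rats and 6.38, 6.49 and 6.46 in vehicle rats, a difference of 0.14 (SE 0.08) that became 0.03 after quantile normalization.

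**Figure D2:**
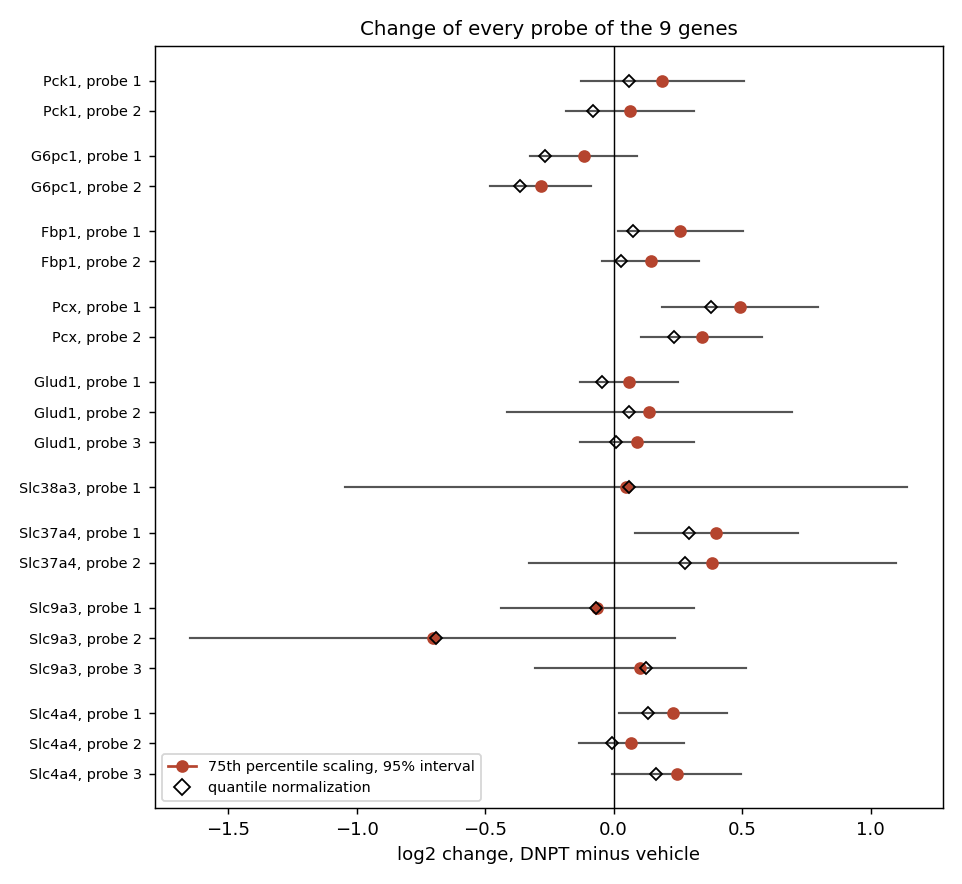
Log2 change, DNPT minus vehicle, of all 20 probes of the 9 genes, numbered from the brightest within each gene; filled points with bars are the limma estimate and its 95% interval, and open diamonds the same change after quantile normalization. Both Pcx probes lie right of 0 and both G6pc1 probes left of it in either scaling, while Fbp1 and Pck1 move to near 0 after quantile normalization.

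Among the ammonia genes, Glud1 was the steadiest member. Its signal was 6.27, 6.19 and 6.21 in DNPT rats, against 6.12, 6.15 and 6.23 in vehicle rats, a difference of 0.06 (SE 0.08, limma adjusted p = 0.753) with an interval from a fold of 0.91 to 1.19. The sign turned to -0.05 after quantile normalization and to -0.07 with normexp before it. Of its other probes, the one of middle brightness followed array position in the same way as the second Slc37a4 probe: 4.69 (DNPT) and 4.54 (vehicle) at position 4, against 5.19 (DNPT) and 5.002 (vehicle) at position 2 and 5.25 (DNPT) and 5.18 (vehicle) at position 3. The third Glud1 probe differed by 0.09 (SE 0.09).

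Slc38a3, the basolateral glutamine transporter SNAT3, varied most between rats. It gave -1.78, -0.14 and -1.42 in DNPT rats, against -1.01, -1.51 and -0.98 in vehicle rats. DNPT replicates 1 and 2 were the lowest and the highest of the 6 rats, so the groups overlapped completely. The difference of 0.05 (SE 0.44, limma adjusted p = 0.970) leaves an interval from a fold of 0.48 to 2.21, the widest of the 9 members. The sign turned without DNPT replicate 2, at -0.44, without vehicle replicate 2, at -0.13, and on slide 1 alone, at -0.62. In the rat, Slc38a3 is known from the late proximal tubule under normal acid-base balance. The 5 markers of that segment (S3) summed to 30.1, 68.3 and 26.1 in DNPT rats and 62.4, 28.3 and 42.3 in vehicle rats. The DNPT rat with the highest Slc38a3 also had the highest sum. Of the 5 markers, 4 were lower in DNPT rats, with a median difference of -0.50. At an unadjusted limma p under 0.05, 2 were lower (6.16% of all features). Without overlap, 2 lay below the vehicle rats (8.32% of all features). The part of this segment in the Slc38a3 values was not tested.

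**Figure D3:**
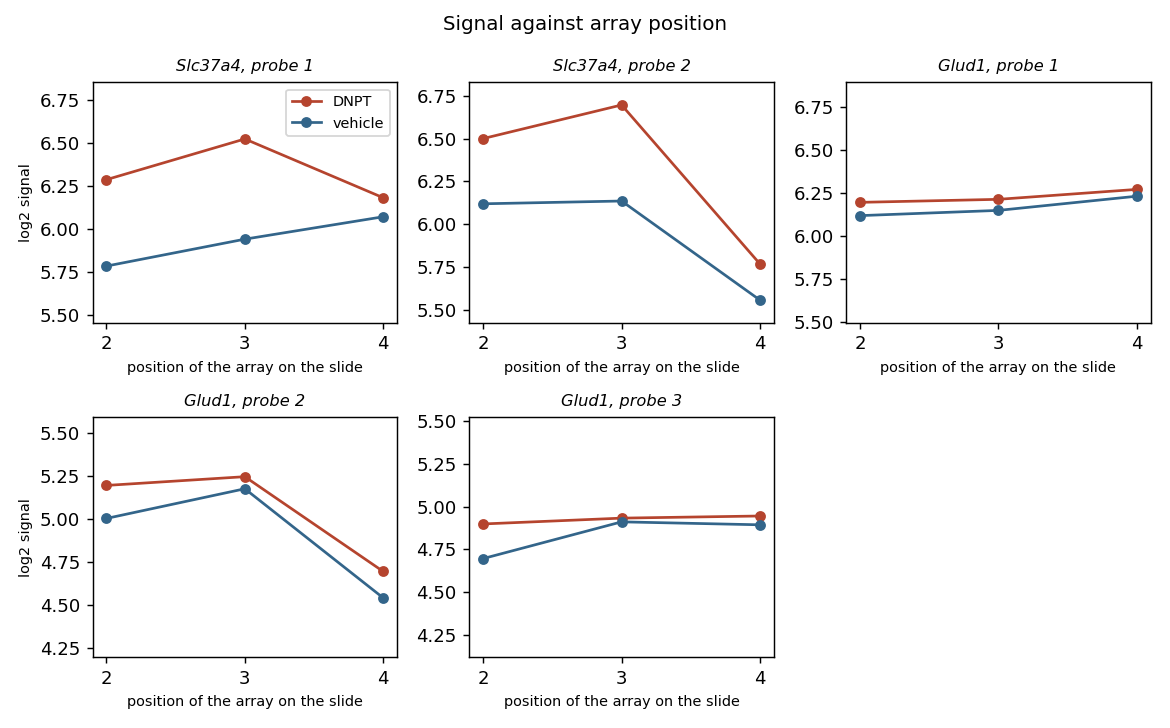
Log2 signal of the Slc37a4 and Glud1 probes against the position of the array on its slide row (2, 3 or 4), for DNPT (red) and vehicle (blue), 1 array per point; probes are numbered from the brightest. The second probes of Slc37a4 and Glud1 are lowest at position 4 in both groups; the first Slc37a4 probe is lowest there in DNPT rats and highest there in vehicle rats.

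Slc9a3, the sodium-proton exchanger NHE3 of the brush border, gave 0.47, 0.25 and 0.15 in DNPT rats, against 0.42, 0.10 and 0.55 in vehicle rats. The groups overlapped, and the difference was -0.06 (SE 0.15, limma adjusted p = 0.873), with an interval from a fold of 0.74 to 1.24. Its 3 probes disagreed. The second probe gave -0.55, -1.89 and -1.89 in DNPT rats, against -0.74, -0.89 and -0.59 in vehicle rats: the 2 arrays of slide 2 were low and DNPT replicate 1, on slide 1, lay above all vehicle rats. That probe differed by -0.70 (SE 0.38) over all rats. The dimmest probe differed by 0.10 (SE 0.17). The sign of the brightest probe turned on slide 1 alone, at 0.12, without vehicle replicate 3, at 0.032, and without DNPT replicate 3, at 0.0052.

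Slc4a4, the electrogenic sodium bicarbonate cotransporter NBCe1, gave 5.52, 5.70 and 5.59 in DNPT rats, against 5.37, 5.32 and 5.43 in vehicle rats, without overlap. The difference was 0.23 (SE 0.09, limma adjusted p = 0.402), a fold of 1.17 (95% interval 1.01 to 1.36). It was 0.13 after quantile normalization, 0.03 with normexp before it and 0.15 on slide 1 alone. The dimmest of its 3 probes was similar (0.24, SE 0.10), and the probe of middle brightness differed by 0.07 (SE 0.08), with overlap.

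**Figure D4:**
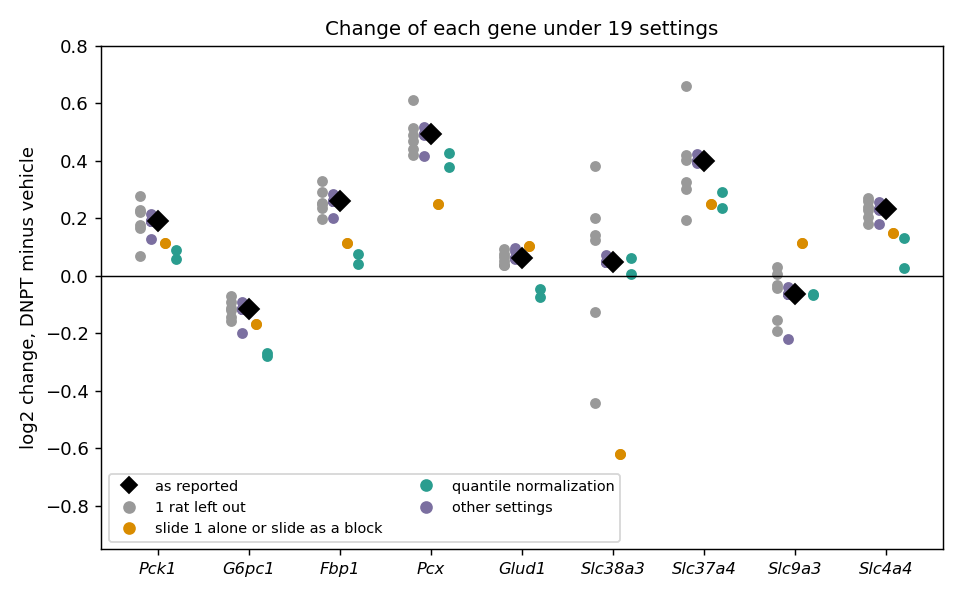
Log2 change, DNPT minus vehicle, of each gene under all 19 settings; black diamonds are the values as reported, grey points leave out 1 rat, orange points use slide 1 alone or slide as a block, green points use quantile normalization (with or without normexp) and violet points the other settings. Pcx and Slc37a4 stay above 0 and G6pc1 below 0 throughout, Slc38a3 spans from -0.62 to 0.38, and Fbp1 and Slc4a4 come closest to 0 under quantile normalization.

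Genes around these steps were taken from 5 lists, of whose genes 104 were tested. None passed an adjusted p of 0.05 (0% over all features). At an unadjusted p under 0.05, 15 were higher and 3 were lower in DNPT rats, together 17.3%, against 12.1% of all features. Of all features, 5.95% were higher and 6.16% lower. The DNPT rats lay above the vehicle rats without overlap in 27 genes and below them in 6, that is 26.0% and 5.77%, against 11.9% and 8.32% of all features. The median difference was 0.07, with 74 positive and 30 negative, and it became 0.02, with 59 positive, after quantile normalization.

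Of 30 other gluconeogenic and glycolytic enzymes, 23 had positive and 7 negative differences (median 0.07). Here 2 were higher and 1 lower at an unadjusted p under 0.05, against 5.95% and 6.16% of all features. Among the brightest, Gapdh was at 0.055 (SE 0.07), Eno1 at 0.01 (SE 0.24) and Khk, ketohexokinase, at 0.13 (SE 0.11). The difference farthest from 0 was that of Glyctk, glycerate kinase (0.33, SE 0.12, limma adjusted p = 0.401). Ldha, a lactate dehydrogenase subunit named after its values were seen, was lower without overlap, at 5.68, 5.73 and 5.63 in DNPT rats and 5.98, 5.94 and 6.06 in vehicle rats (-0.31, SE 0.08, limma adjusted p = 0.354), while Ldhb, also named afterwards, was at 0.18 (SE 0.08). The 2 Ldha probes differed by -0.31 and -0.24.

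Of 16 tested carriers for sugar, lactate and dicarboxylates, 13 had positive and 3 negative differences (median 0.15). Among them 3 were higher and 1 lower at an unadjusted p under 0.05, against 5.95% and 6.16% of all features. The brightest were Slc5a2, the glucose cotransporter SGLT2 (0.42, SE 0.11), Slc13a3, a dicarboxylate transporter (0.22, SE 0.10), and the mitochondrial pyruvate carrier subunits Mpc1 (0.17, SE 0.08) and Mpc2 (0.11, SE 0.09). Slc16a1, the lactate transporter MCT1, had the difference farthest from 0, at 1.89, 1.80 and 1.12 in DNPT rats and 2.67, 2.16 and 2.28 in vehicle rats (-0.77, SE 0.25, limma adjusted p = 0.393). Slc2a2, the basolateral glucose exit GLUT2, was named after its values were seen: it gave 3.99, 3.78 and 4.20 in DNPT rats and 3.43, 3.49 and 3.53 in vehicle rats, without overlap (0.50, SE 0.12, limma adjusted p = 0.353). Over its 3 probes the Slc2a2 difference ran from 0.28 to 0.50.

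Of 19 genes for glutamine, glutamate and ammonia, 15 had positive and 4 negative differences (median 0.20). In this list 5 were higher and 0 lower at an unadjusted p under 0.05, against 5.95% and 6.16% of all features. The brightest were Suclg1 (0.20, SE 0.10) and Dlst (0.21, SE 0.10), both of the citric acid cycle, and Aldh4a1 (0.26, SE 0.09) and Prodh2 (0.25, SE 0.09), which break down proline and hydroxyproline. Prodh, proline dehydrogenase, had the difference farthest from 0, with 4.02, 4.80 and 5.33 in DNPT rats and 4.61, 4.05 and 4.001 in vehicle rats, and the groups overlapped (0.49, SE 0.36). Gls2, which codes for an enzyme that releases ammonia from glutamine and was named after its values were seen, gave 0.48, 0.53 and 0.47 in DNPT rats and 0.03, 0.18 and 0.14 in vehicle rats (0.38, SE 0.08, limma adjusted p = 0.311). Rhcg, an ammonia channel of the collecting duct, was also named afterwards, at 0.29 (SE 0.15), with overlap. Collecting duct markers summed to 253 to 282 in DNPT rats and 238 to 268 in vehicle rats. Of these 6 markers, 4 were higher in DNPT rats, with a median difference of 0.37. At an unadjusted limma p under 0.05, 3 were higher (5.95% of all features). Without overlap, 3 lay above the vehicle rats (11.9% of all features). The part of these markers in the Rhcg value was not tested.

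**Figure D5:**
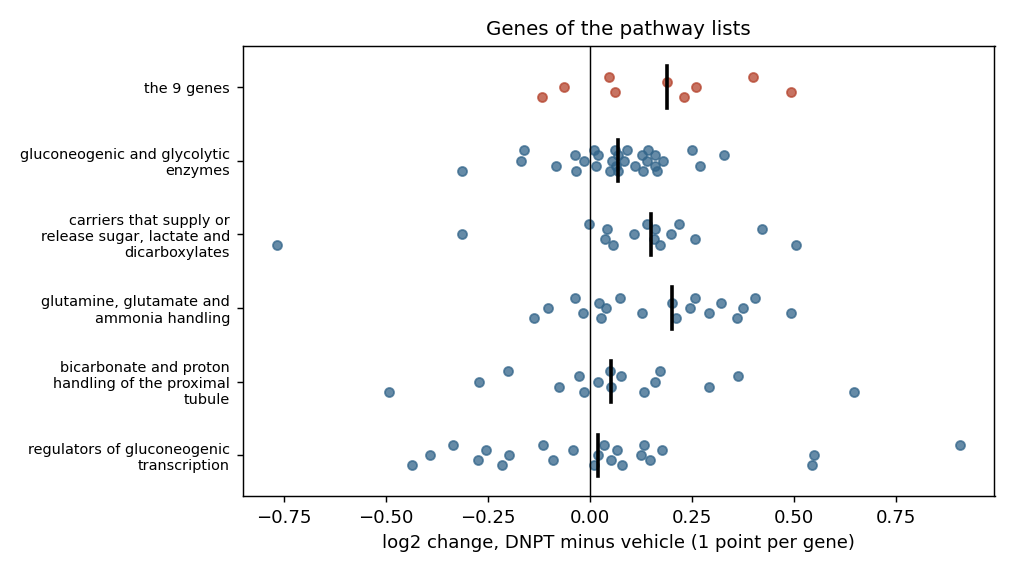
Log2 change, DNPT minus vehicle, of the 9 genes (red, top row) and of the tested genes of 5 pathway lists (blue), 1 point per gene; vertical bars are medians. The medians lie between 0.02 for the regulators and 0.20 for glutamine and ammonia genes, and no gene passed an adjusted p of 0.05.

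Of 16 tested genes for bicarbonate and proton handling, 10 had positive and 6 negative differences (median 0.05). Here 3 were higher and 0 lower at an unadjusted p under 0.05, against 5.95% and 6.16% of all features. Car4, the membrane carbonic anhydrase of the brush border, was both among the 4 brightest and farthest from 0: it gave 5.61, 5.56 and 5.74 in DNPT rats and 4.95, 5.10 and 4.91 in vehicle rats (0.65, SE 0.10, limma adjusted p = 0.256). Its DNPT values lay well apart from its vehicle values. The other bright genes were Ahcyl1, which codes for a regulator of Slc4a4 (0.29, SE 0.11), and the scaffold genes Pdzk1 (0.17, SE 0.12) and Ezr (0.16, SE 0.09).

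Of 23 regulators of gluconeogenic transcription, 13 had positive and 10 negative differences (median 0.02). Among them 2 were higher and 1 lower at an unadjusted p under 0.05, against 5.95% and 6.16% of all features. Ppara, a nuclear receptor for fatty acids, was farthest from 0, at 0.85, 1.02 and 0.61 in DNPT rats and 0.11, -0.30 and -0.04 in vehicle rats (0.91, SE 0.16, limma adjusted p = 0.266). Klf15, a glucocorticoid-induced factor among the 4 brightest, gave 3.94, 3.95 and 4.34 in DNPT rats and 3.66, 3.38 and 3.57 in vehicle rats (0.54, SE 0.15, limma adjusted p = 0.358). The other bright regulators were Hnf4a (0.12, SE 0.20), Pth1r (0.13, SE 0.13) and Esrra (-0.04, SE 0.08), whose groups overlapped.

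The genes whose profile over the 6 rats was nearest to that of a member were found by the root mean square difference of profiles centred on their mean, among 12676 named genes with values in all 6 samples. For Pck1 they were Crebzf (0.04), Bbs2 (0.04) and Ppp1r14a (0.05), where the Pck1 profile itself had a root mean square of 0.16. For G6pc1 they were Hip1 (0.01), Desi1 (0.02) and C3h11orf96 (0.03), against 0.08 for G6pc1 itself. For Slc38a3 they were Ctsr (0.17), Stag3 (0.19) and Krt6c (0.20), against 0.53 for Slc38a3 itself. With 6 samples and this many genes, near matches are described only.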

How the data were processed

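Per the labels' protocols, total RNA of renal cortex was amplified to Cy3-labelled cRNA. Agilent Feature Extraction 10.7, per the submitters' processing notes, read the arrays. Per the file headers, the deposited intensity is the processed signal of each spot after background subtraction, on a design that names build rn4. The deposited value table is a ratio, each array's processed signal over a constant near its 75th percentile; how it was made is not stated here. Its values above 1 matched the scanner values with a single factor per array, at least 99.8% of them within 1%, and genes were not centred; the medians of its columns lay between 0.112 and 0.116.

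Control spots and 113 values marked as outliers were left out. Log2 processed signals minus each array's 75th percentile were tested if well above background on at least 3 of 6 arrays, with at least 2 values per group. Accessions were matched without versions to RefSeq genes of GRCr8 (28206 of 61537 probes had 1 gene, 0 several, 33331 none). The brightest tested probe stood for a gene. Groups were compared with limma 3.58.1 (R 4.3.3), two-sided, without covariates. Benjamini-Hochberg adjustment ran over all 34915 features, or 44305 probes for single probes. The number of arrays limits precision. The limma comparison was also run on simulated arrays with independent noise and with changes larger than those of the members. That run held no slide or position effects, so it could not show how these bear on the results.

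Members, lists and tests were chosen with earlier results of these data known. Named were all members, each list's 4 brightest genes and the largest difference, and the 3 nearest profiles of Pck1, G6pc1 and Slc38a3; others are marked, and some named by the rule are not reported here. Array position as a block was added after seeing the data. Normexp (offset 50) used the median signal of each spot. Tables and plots used Python 3.11.15, pandas 2.3.3 and matplotlib 3.10.9.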

Additional observations from a re-analysis of the deposited data

How the results depend on the processing

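Over 18 alternatives, the 9 members gave 162 values, of which 151 kept their direction and their side of the threshold, and 5 members (Pck1, G6pc1, Fbp1, Slc37a4 and Slc4a4) did so under every alternative. With quantile normalization Glud1 was at -0.047, and with normexp followed by quantile normalization at -0.072. With slide as a fixed block or on slide 1 alone, both of which rest on DNPT replicate 1, Slc38a3 was at -0.62 and Slc9a3 at 0.12. With each rat left out in turn, Slc38a3 ranged from -0.44 to 0.38, Slc9a3 from -0.19 to 0.032 and Pcx from 0.42 to 0.61; Pcx passed without DNPT replicate 1 only (adjusted p 0.0457, against 0.0457 to 0.743 over its alternatives). Slc37a4 ranged from 0.19 to 0.66, because its other probe became the brighter one without vehicle replicate 3 or DNPT replicate 1, and it was at 0.24 with normexp for the same reason. The number of features that passed was 0 as reported, 5 with normexp, 1 when slide was a block, 1 for slide 1 by itself, 0 to 640 with each rat left out (3 without vehicle replicate 2, 640 without DNPT replicate 1), and 0 under the others; the cause was not tested. Features at an unadjusted p under 0.05 numbered 4227 as reported and 2393 (slide as a block) to 8737 (no filter on dim probes) under the alternatives.

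No pairing of the rats by the replicate numbers of the labels was seen. Deviations from the group means correlated at -0.18, -0.06 and -0.18 for numbers 1, 2 and 3, over 34856 features. With the replicate block 0 features passed and 3094 had an unadjusted p under 0.05; Pcx stayed at 0.49 (adjusted p = 0.551). Arrays at the same position on the row correlated at 0.27 (position 2), 0.26 (position 3) and 0.33 (position 4), and all other pairs were negative. Deviations are centred within each group, so 1 positive pair makes the other pairs of that array negative on balance. The negative values, also those of the same replicate number, are therefore no separate evidence. With array position as a block 0 features passed, and Pcx and Slc37a4 had an unadjusted p under 0.05, where 4 members did without the block. All 20 member probes were marked as well above background on every array, but the dimmest, the third Slc9a3 probe, read only 77.8 to 126 units before scaling.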
